A study of Mus musculus with 12 samples.

Results

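The 85 nuclear genes for subunits of the 5 oxidative phosphorylation complexes were followed in bulk RNA sequencing of mouse hippocampus, in *Dek* cKO mice and WT mice. They were chosen by symbol alone among the protein-coding genes of GENCODE M21. Their symbols begin with Nduf followed by a, b, c, s or v and a digit, with Uqcr, with Cox4 to Cox8 or with Atp5, or read Sdha to Sdhd or Cyc1. Among the 26409 genes listed, 37 fell to complex I, 4 to complex II, 9 to complex III, 18 to complex IV and 17 to complex V. A further gene identifier that matched the rule was not among the listed genes. The data held 12 libraries, 3 each of female WT, male WT, female *Dek* cKO and male *Dek* cKO, from mice of 6 to 12 months. *Dek* cKO mice carried a germline deletion of exons 3 and 4 of *Dek*, made by crossing *Dek* fl/fl mice with CMV-Cre mice on a C57Bl/6 background, after which the Cre transgene was bred out. The deletion was therefore in all cells, and the microdissected hippocampus of each mouse, which had completed behavioural testing, was measured. In such tissue, fewer cells of a type and less RNA per cell cannot be told apart.

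Oxidative phosphorylation is the set of reactions in the inner mitochondrial membrane by which electrons from nutrients are passed to oxygen while ATP is made. Complex I (NADH dehydrogenase) and complex II (succinate dehydrogenase) feed electrons in, complex III (cytochrome bc1) and complex IV (cytochrome c oxidase) pass them on to oxygen, and complex V (ATP synthase) uses the proton gradient that complexes I, III and IV build. Most subunits are encoded in the nucleus, and complexes I, III, IV and V also contain subunits encoded in the mitochondrial genome, which have symbols that begin with mt-. Neurons depend on this pathway for most of their ATP, and several complex IV subunits have alternative forms that are used in muscle, lung or testis.

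Values were in TPM, a unit that corrects each gene's reads for the length of its transcripts. Levels of different genes could therefore be compared per length. The unit gives every library the same total over all transcripts quantified. The listed genes alone did not sum to the same total, with 825750 TPM in female cKO replicate 1 and 845553 TPM in female cKO replicate 3. The table holds no read counts, so no counting error could be set beside the values. The study's methods name a depth for the libraries as a whole. *Dek* itself lay between 44.2 and 51.9 TPM in the 6 WT libraries and between 5.55 and 9.25 TPM in the 6 *Dek* cKO libraries. In 2 libraries the levels of Y-linked genes went against the labelled sex: female cKO replicate 3 expressed them and male cKO replicate 1 did not. Most counts and medians by sex over all subunits are therefore also given without these 2 libraries, as are the values of several named subunits. Library names share 1 prefix in female WT and another in the remaining 9 libraries, so that prefix and group cannot be told apart in comparisons with female WT. The labels number 3 samples per group without naming the animals, so p-values measure the spread between these samples. No 2 libraries held the same values.

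As a class, the subunits were among the most abundant transcripts of the hippocampus. On the TPM scale, 64 of the 85 had a mean level above 100 TPM, against 5.02% of all listed genes, and the median subunit stood at 216.6 TPM, against 9.60 TPM for the 18197 genes tested. Together the subunits took 2.54% to 2.88% of the listed TPM in each library, and the 13 mitochondrially encoded subunits took 20.6% to 24.3%. The median mean level was 175 TPM in complex I, 136 TPM in complex II, 259.8 TPM in complex III, 258.8 TPM in complex IV and 343 TPM in complex V. Complex V and complex IV held the genes at the top of the range, while complex I, with 27 of its 37 genes above 100 TPM, ran from 1.25 to 396 TPM.

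In complex I, the level of *Ndufa3*, a small accessory subunit, was the highest at 396 TPM on average. The flavoprotein that accepts electrons from NADH, *Ndufv1*, lay between 164 and 187 TPM over the 12 libraries. The iron-sulfur subunit *Ndufs1* averaged 88.8 TPM. In complex II, the flavoprotein *Sdha* led with a mean of 255 TPM, followed by the iron-sulfur protein *Sdhb* at 160.2 TPM. The 2 membrane anchors *Sdhc* and *Sdhd* had means of 113 and 109 TPM, and their ranges of 91.2 to 127 TPM and 102 to 114 TPM overlapped. In complex III, the small subunit *Uqcr11* was highest, with a mean of 585 TPM, and the core protein *Uqcrc1* was lowest, with 94.2 TPM. The catalytic subunits of the complex, the Rieske protein *Uqcrfs1* and cytochrome c1 (*Cyc1*), averaged 134 and 120 TPM, which places catalytic members of complex III in the lower part of their complex.

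In complex IV, *Cox8a*, a small membrane subunit, was the most abundant of all 85 genes, with a mean of 1302 TPM. *Cox4i1*, the largest nuclear-encoded subunit, followed at 954 TPM and *Cox6c* at 871 TPM, while *Cox5a* averaged 297 TPM. In complex V, the catalytic beta subunit *Atp5b* led with 983 TPM. The alpha subunit *Atp5a1*, present in the enzyme in equal number with beta, had a mean of 269 TPM. The membrane ring of the enzyme is made of subunit c, encoded by 3 genes with nearly the same mature protein: *Atp5g3* averaged 593 TPM, *Atp5g1* 354 TPM, and *Atp5g2* was listed at 0 in every library. The plot of levels by complex shows WT and *Dek* cKO means on top of each other for nearly all subunits.

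**Figure D1:**
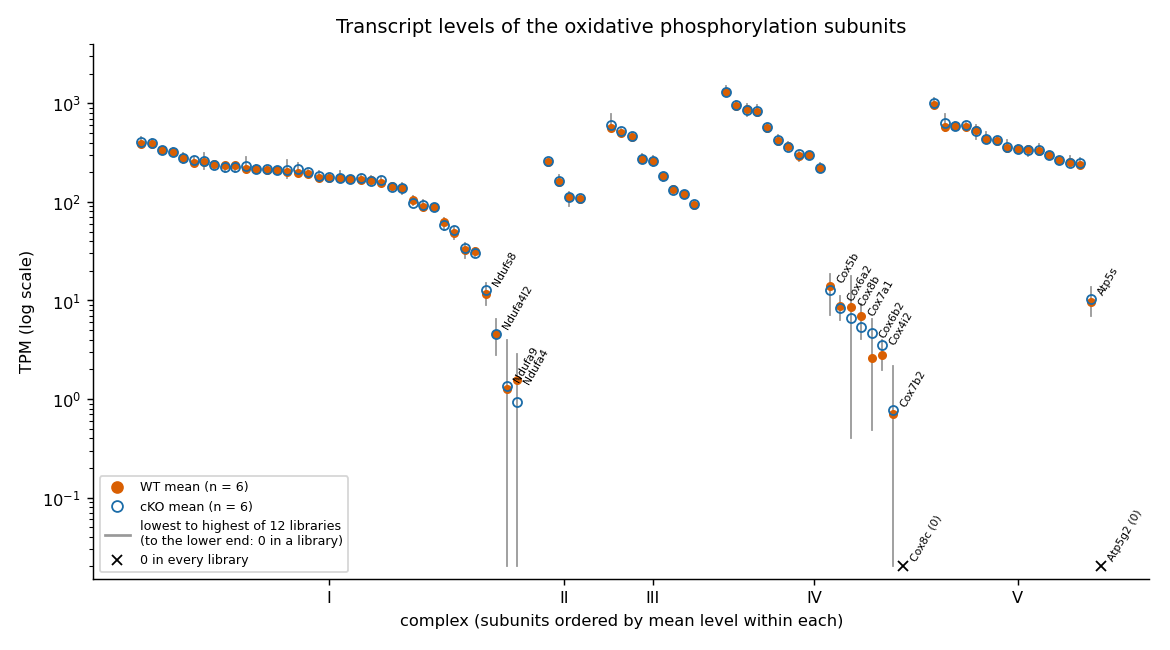
Mean level of each subunit in 6 WT libraries (filled) and 6 *Dek* cKO libraries (open), with the range over all 12 libraries as a line, on a log axis in TPM. The subunits are ordered by level within each complex, and those with a mean under 20 TPM are named. Most lie between 100 and 1302 TPM, and the low tail is made of complex IV isoforms and a few single genes.

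A separate group of 14 subunits had means under 20 TPM, 8 of them in complex IV. Of these, 8 are isoforms known from other tissues and were taken as a list: *Ndufa4l2*, *Cox4i2*, *Cox6a2*, *Cox6b2*, *Cox7a1*, *Cox7b2*, *Cox8b* and *Cox8c*. The 6 of complex IV with a named counterpart and a level above 0 stood far below the form that is used in most tissues. The mean of *Cox4i1* was 303 times that of *Cox4i2*, the lung form, which had 3.15 TPM. *Cox6a1* was 96.2 times above *Cox6a2*, the heart and muscle form, at 8.63 TPM, and *Cox7a2* was 59.6 times above *Cox7a1*, also a heart and muscle form, at 6.13 TPM. *Cox6b1* was 116 times above *Cox6b2*, known from testis, and *Cox7b* was 404 times above *Cox7b2*. *Cox8a* was 170 times above the heart and muscle form *Cox8b*, and *Cox8c*, known from testis, was listed at 0 in every library. *Ndufa4l2*, known as a target of hypoxia signalling, averaged 4.53 TPM, above *Ndufa4* at 1.25 TPM.

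The promoters of the pair with the most abundant member, *Cox8a* and *Cox8b*, are shown to set an abundant form beside a scarce one. Both sequences are RefSeq windows of GRCm38.p6 on the minus strand, 5′ to 3′, from 250 bases before to 50 bases after the annotated start, at chr19:7217567-7217866 for *Cox8a* and chr7:140900397-140900696 for *Cox8b*. Capitals mark matches on either strand to 4 motifs searched: the NRF1 half-site GCGCATGC, the ETS core CCGGAAGT, the YY1 core AAGATGGCG and the CCAAT box.
Cox8a: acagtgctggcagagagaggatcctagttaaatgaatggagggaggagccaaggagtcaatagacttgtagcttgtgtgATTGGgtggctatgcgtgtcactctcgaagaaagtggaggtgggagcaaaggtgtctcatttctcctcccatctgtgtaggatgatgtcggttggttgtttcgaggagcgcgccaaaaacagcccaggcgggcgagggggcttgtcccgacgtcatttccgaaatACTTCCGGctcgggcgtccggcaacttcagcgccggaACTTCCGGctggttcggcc
Cox8b: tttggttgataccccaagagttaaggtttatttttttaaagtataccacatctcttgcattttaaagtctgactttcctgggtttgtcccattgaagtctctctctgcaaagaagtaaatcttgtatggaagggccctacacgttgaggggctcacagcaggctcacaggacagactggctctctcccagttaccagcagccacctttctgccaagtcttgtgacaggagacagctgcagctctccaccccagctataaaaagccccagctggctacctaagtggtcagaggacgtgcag
The *Cox8a* window held 2 ETS cores, both read on the opposite strand close to the start, and 1 CCAAT box, while the *Cox8b* window held none of the 4 motifs. RefSeq windows were matched for 66 of the 85 subunits and compared with those of 17492 protein-coding genes. The NRF1 half-site was in 15.2% of subunit windows (10 of 66) against 3.94% of all, and the YY1 core in 10.6% (7 of 66) against 2.14%. The ETS core was in 7.58% (5 of 66) against 5.69%, and the CCAAT box, whose short motif is frequent by itself, in 43.9% (29 of 66) against 42.3%. The motif letters do not overlap each other in the windows shown, and a match is a description of the sequence only.

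*Cox8b* was also the isoform that varied most between mice. Its 6 WT values were 10.8, 5.65 and 1.17 TPM in females and 16.7, 2.02 and 15.7 TPM in males. The *Dek* cKO values were 0.399, 10.7 and 4.63 TPM in the libraries labelled female and 17.7, 1.47 and 5.21 TPM in those labelled male. These values spread over the same range in both genotypes and rose with the choroid plexus markers of the library. Against the median of 9 choroid plexus markers, Pearson's r was 0.896 (permutation p = 0.0001) and Spearman's rho was 0.860 (permutation p = 0.00055) over 12 libraries. Among the 91 relations of 7 isoforms with 13 marker lists, the Benjamini-Hochberg adjusted values were 0.0091 and 0.05005. Without the 2 libraries farthest from the median marker level, r was 0.814, and r was 0.823 within WT and 0.987 within *Dek* cKO. The summed level of the 9 markers spanned 75.8 to 3075 TPM in WT and 48.3 to 4497 TPM in *Dek* cKO libraries. This relation thus passed the correction at 0.05 by Pearson's r and not by Spearman's rho, and no other relation passed by either. The next one, *Cox6b2* with 4 dentate gyrus markers, had r = 0.723 (permutation p = 0.0113) and rho = 0.790 (permutation p = 0.00316), with adjusted values of 0.516 and 0.144.

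**Figure D2:**
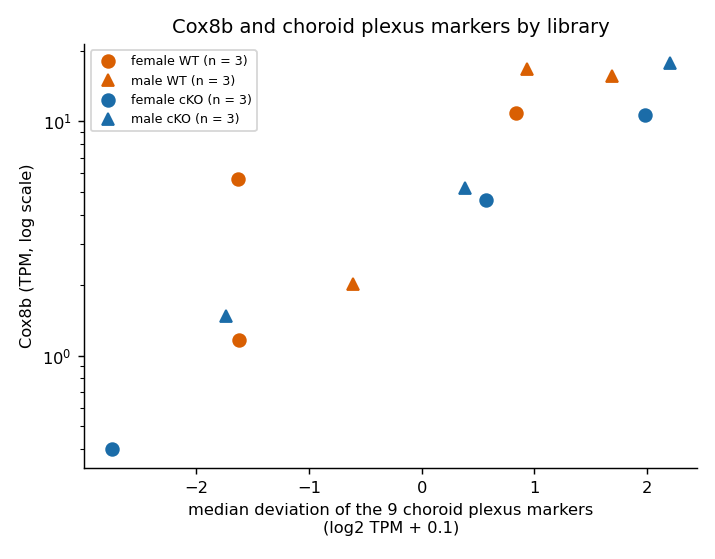
Level of *Cox8b* (TPM, log axis) against the median deviation of 9 choroid plexus markers from their means (log2 scale) in each of the 12 libraries, 3 per group. *Cox8b* runs from 0.399 to 17.7 TPM along the marker level, with both genotypes spread over the whole range.

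The other low values belonged to genes that are not known as restricted forms: *Cox5b* (13.4 TPM), *Ndufs8* (12.2 TPM), *Atp5s* (10.1 TPM), *Ndufa9* (1.30 TPM), *Ndufa4* (1.25 TPM) and *Atp5g2*, listed at 0. *Ndufs8* and *Ndufa9* encode parts of the complex I peripheral arm, and *Ndufa4* a protein now assigned to complex IV. Transcripts of 22 subunits had a near copy in another GENCODE M21 gene, counted as at least 95% identity over at least 200 bases of the same strand. Of 39 such copies, 28 were among the listed genes, and 26 of these had means under 10 TPM. The remaining 2 were abundant. *Gm10175*, identical to an *Atp5g2* transcript over 645 bases, averaged 222 TPM while *Atp5g2* was at 0. *Ndufb4c*, identical to *Ndufb4* over 390 bases, averaged 300.5 TPM while *Ndufb4* averaged 50.0 TPM. The levels of *Atp5g2* and *Ndufb4* are thus uncertain. No near copy was found for *Ndufa4*, *Ndufa9* or *Ndufs8*, and the near copy of *Cox5b* had only 0.298 TPM. Whether the low listed levels of these genes are those of the tissue or come from the assignment of reads was not tested, so they are uncertain too.

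The comparison of 6 *Dek* cKO with 6 WT libraries addresses whether loss of this chromatin protein changes the pathway. None of the 83 subunits tested (mean of at least 0.1 TPM, which leaves out *Atp5g2* and *Cox8c*) reached a fold change over 1.2 together with an adjusted p under 0.05 in limma, where 0.148% of all genes did. At an unadjusted p under 0.05, 3 subunits were higher (3.61%, against 4.84% of all genes) and 1 was lower (against 1.8%), so that the shares were not above the background. Leaving out the 2 libraries of conflicting sex, 1 was higher (against 4.95%) and 0 were lower (against 2.45%). The total of 4 was 2 without any 1 of female WT replicates 2 and 3, female cKO replicate 3 and male cKO replicates 1 and 2. The median log2 difference over the 83 subunits was 0.023, against 0.016 over all genes tested, and 56 of the 83 were above 0. The median of the subunits was -0.0003 without male cKO replicate 3, and -0.014 without the 3 female WT libraries, which have their own name prefix. The medians of the 5 complexes were alike, with 0.023 for complex I, 0.024 for complex II, 0.029 for complex III, 0.021 for complex IV and 0.027 for complex V. The groups did not separate completely for any subunit, while 0.572% of all genes lay higher and 0.104% lower in every *Dek* cKO library than in every WT library.

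The size of change that these data could still hold was small for the abundant subunits. The 95% interval of the log2 difference lay within a fold change of 1.2 in either direction for 70 of the 83 subunits (84.3%, against 36.6% of all genes). Among genes of at least 20 TPM, the shares were closer, with 98.6% of subunits against 76.1% of all genes. Of the 71 subunits with at least 20 TPM, *Atp5l*, a subunit of the ATP synthase membrane part, was the exception, with an interval of -0.05 to 0.30. The 71 had a median coefficient of variation of 5.89% over the 12 libraries, from 3.37% for *Ndufb6* to 11.9%, against a median of 8.03% over the 6417 genes of that level. None of the 12 tested subunits under 20 TPM had an interval inside these bounds, so that a fold change of 1.2 in at least 1 direction lay within each interval.

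The 4 subunits at an unadjusted p under 0.05 were of different kinds. *Ndufa10*, an accessory subunit of the complex I membrane arm, had a lowest, median and highest WT level of 98.6, 103.9 and 115 TPM and *Dek* cKO levels of 92.5, 96.6 and 103 TPM. The ranges overlapped, and the log2 difference was -0.11 ± 0.04 (SE, n = 6 per group, limma adjusted p = 0.674). *Ndufs6*, a small complex I subunit with a zinc site, had WT levels of 150.3, 156 and 164 TPM and *Dek* cKO levels of 155, 168 and 179 TPM. Its log2 difference was 0.10 ± 0.04 (limma adjusted p = 0.729), again with overlap. *Cox4i2* had WT levels of 1.97, 2.71 and 3.58 TPM and *Dek* cKO levels of 2.97, 3.56 and 4.0 TPM, a log2 difference of 0.36 ± 0.15 (limma adjusted p = 0.698). *Cox6b2* had WT levels of 0.483, 2.52 and 4.45 TPM and *Dek* cKO levels of 2.53, 4.75 and 6.43 TPM, a log2 difference of 1.06 ± 0.43 (limma adjusted p = 0.674). Its lowest value was that of female WT replicate 3, which also had one of the lowest median levels of the 4 dentate gyrus markers (-0.62 on the log2 scale), and without this library the log2 difference was 0.67 over both sexes and 0.62 in females. The part of tissue composition in this difference was not tested.

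The remaining subunits with the smallest p-values had log2 differences of 0.12 (*Ndufa2*), 0.08 (*Ndufs7*), 0.12 (*Ndufb4*), 0.08 (*Ndufa7*), -0.33 (*Cox7a1*) and -0.09 (*Ndufa12*), with limma adjusted p-values from 0.793 to 0.841. Catalytic members differed by little, as did *Cox4i1* in complex IV, whose catalytic core is encoded by the mitochondrial genome. The difference was 0.03 ± 0.04 for *Ndufv1*, 0.03 ± 0.04 for *Sdha*, -0.02 ± 0.04 for *Uqcrfs1*, -0.01 ± 0.04 for *Cyc1*, 0.04 ± 0.04 for *Cox4i1*, 0.04 ± 0.05 for *Atp5b* and 0.00 ± 0.04 for *Atp5a1* (log2, SE, n = 6 per group). *Sdhb* had WT levels of 155, 157 and 163 TPM and *Dek* cKO levels of 151, 159.8 and 188 TPM, the highest of which was male cKO replicate 3.

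**Figure D3:**
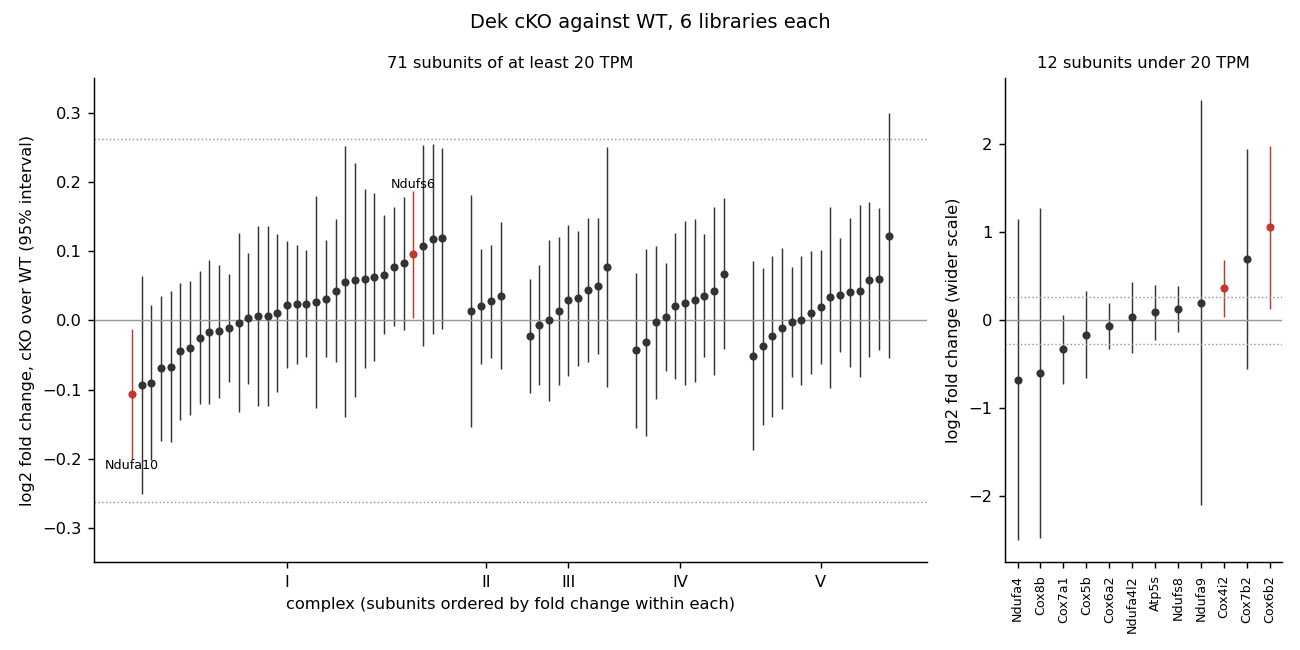
Log2 fold change of *Dek* cKO over WT with its 95% interval for 71 subunits of at least 20 TPM by complex (left) and 12 subunits under 20 TPM on a wider scale (right). Red marks an unadjusted p under 0.05, and dotted lines mark a fold change of 1.2 in either direction. The abundant subunits cluster around 0, and those under 20 TPM have intervals that leave these lines.

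Within each sex, 3 *Dek* cKO libraries were set against 3 WT libraries in a fit on all 4 groups, which addresses whether the response differs between females and males. No subunit passed in females or in males, where 0.0165% of all genes did in each. The difference in response between the sexes is the male cKO minus WT difference less the female one. It is not a difference in level between males and females. No subunit passed in its test, where the share of all genes was 0%, with 770 genes at an unadjusted p under 0.05 in limma. In females, 3 subunits were higher (3.61%, against 3.91% of all genes) and 3 lower (3.61%, against 1.88%) at an unadjusted p under 0.05. In males, 0 were higher (against 3.68%) and 1 was lower (against 1.78%). For the difference in response, 1 was positive at this threshold (against 2.07% of all genes) and 1 was negative (against 2.16%). Without the 2 libraries of conflicting sex, these counts were 2 higher (against 6.2% of all genes) and 2 lower (against 2.49%) in females. In males they were 5 higher (against 4.81%) and 1 lower (against 4.22%). For the difference in response they were 5 positive (against 3.03%) and 1 negative (against 5.8%). Single libraries moved them as well. The total of 6 in females was 10 without female cKO replicate 1 and 3 without female WT replicate 1, female cKO replicate 3 or male cKO replicate 3. The total of 1 in males was 4 without male cKO replicate 1 and 2 without female cKO replicate 3. For the difference in response, the total of 2 was 4 without female cKO replicate 1 or male cKO replicate 1. It was 1 without female WT replicate 2 or male WT replicate 3. Without female WT replicate 1, female cKO replicate 3, male cKO replicate 2 or male WT replicate 2 it was 0. The intervals stayed within a fold change of 1.2 for 52 of 83 subunits in females (62.7%, against 19.5% of all genes) and for 63 in males (75.9%, against 19.4%). Among genes of at least 20 TPM, the shares were 73.2% of subunits against 46.9% of all genes in females, and 88.7% against 46.6% in males.

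Of the subunits named in females, *Ndufs7*, a core iron-sulfur subunit of complex I, differed by 0.13 ± 0.05, *Ndufc1* by -0.18 ± 0.07, *Cox7a1* by -0.60 ± 0.25 and *Cox6b2* by 1.34 ± 0.57, with limma adjusted p = 0.845 for each. *Ndufa4* was also at an unadjusted p under 0.05 in females and for the difference in response. It had single values from 0 to 2.85 TPM, and 0 in a library of each genotype. In males, *Ndufa10* differed by -0.15 ± 0.06 (limma adjusted p = 0.880), and *Cox4i2*, *Ndufs6*, *Ndufa7* and *Ndufb2* by 0.45, 0.10, 0.09 and -0.09 without reaching an unadjusted p under 0.05. Without the 2 libraries of conflicting sex, the female difference was -0.80 for *Cox7a1* and 0.11 for *Ndufs7* (limma adjusted p = 0.436 and 0.613). The male difference was 0.17 for *Ndufs6* and 0.13 for *Ndufa7* (limma adjusted p = 0.508 and 0.551). In this fit *Cox7a1* in females and *Ndufs6* and *Ndufa7* in males were at an unadjusted p under 0.05, and *Ndufs7* in females was not. For the difference in response, the values were -0.17 for *Ndufs3*, -0.14 for *Cox4i1* and 0.18 for *Atp5k*, without reaching an unadjusted p under 0.05. Without the 2 libraries they were -0.13, -0.09 and 0.16, and *Atp5k* was then at an unadjusted p under 0.05 (limma adjusted p = 0.550).

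By median over the 83 subunits, the log2 difference was 0.046 in females (0.015 over all genes) and 0.011 in males (0.020 over all genes). The median difference in response was -0.031 (0.007 over all genes). The medians in females lay between 0.034 for complex I and 0.050 for complex IV, and in males between -0.020 for complex IV and 0.021 for complex I. Without the 2 libraries of conflicting sex, the female median was 0.005 and the median difference in response turned to 0.036. Without female cKO replicate 3 alone these were 0.005 and 0.019. Without male cKO replicate 1 alone the median difference in response was 0.005, so that its sign rested on each of these libraries. The male median was -0.022 without male cKO replicate 3 and -0.005 with median ratio rescaling. Female cKO replicate 3 had *Cox8a*, *Atp5b*, *Cox4i1* and *Uqcr11* at 1512, 1127, 1049.8 and 781 TPM, the highest of all 12 libraries for each, but *Cox6c*, *Atp5k*, *Ndufs5* and *Atp5j* at 748, 437, 313 and 293 TPM, the lowest of all 12 for each. Of the 71 subunits of at least 20 TPM, it was the highest library for 20 and the lowest for 11, while male cKO replicate 3 was the highest for 26 and the lowest for 0.

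The median subunit level was then followed library by library, as the median deviation of the 83 subunits from their own means on the log2 scale. In WT it was -0.021, -0.035 and -0.075 in females and 0.028, 0.035 and 0.0001 in males. In *Dek* cKO it was -0.054, -0.023 and 0.025 in the libraries labelled female and -0.042, 0.037 and 0.114 in those labelled male. All 3 male WT libraries were above all 3 female WT libraries. Among *Dek* cKO libraries the only labelled female above 0 was replicate 3 and the only labelled male below 0 was replicate 1, which are the 2 libraries of conflicting sex. Male cKO replicate 3 was the highest library in complexes I, II, III and V and the second highest in complex IV. The 13 mitochondrially encoded subunits did not follow this order, with -0.011 in male cKO replicate 3 and 0.057 in female WT replicate 1.

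**Figure D4:**
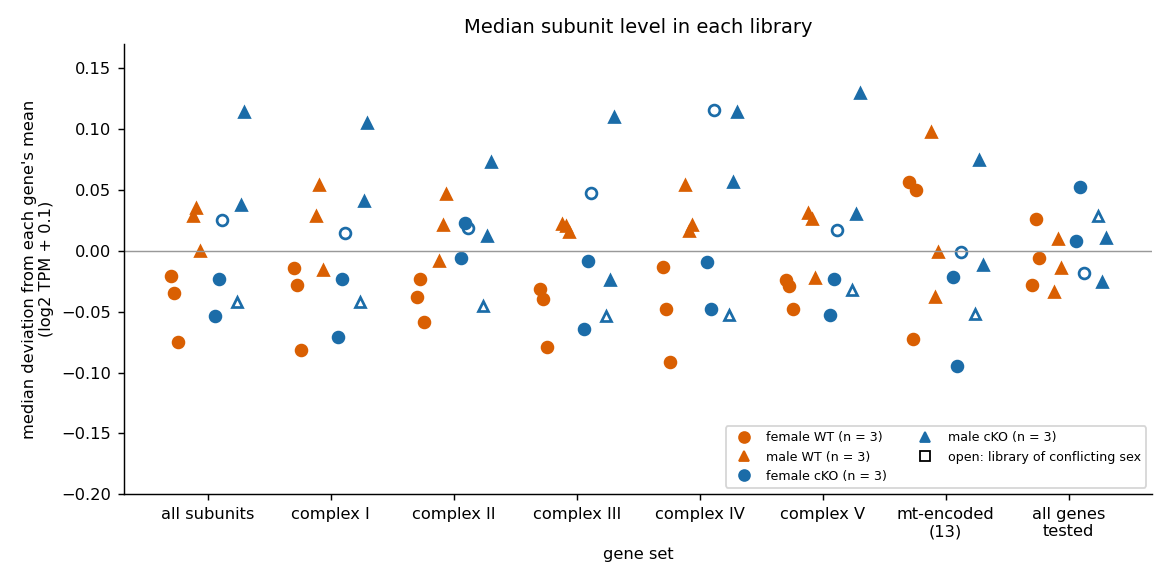
Median deviation of each gene set from the genes' own means (log2 scale) in each of 12 libraries, with 3 libraries per group and open symbols for the 2 libraries of conflicting sex. In all subunits, the 3 male WT libraries (0.0001 to 0.035) lie above the 3 female WT libraries (-0.075 to -0.021), and female cKO replicate 3 and male cKO replicate 1 lie on the side opposite to their label.

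This pattern led to a comparison of male with female libraries, chosen after the library medians were seen. With the sexes as labelled and both genotypes weighted equally, the median log2 difference of male minus female was 0.052 over the subunits and -0.013 over all genes tested, and 67 of the 83 subunits were above 0. At an unadjusted p under 0.05, 12 subunits were higher in males (14.5%, against 2.49% of all genes) and 0 were lower (against 3.38%). No subunit passed with adjustment (against 0% of all genes). In WT alone the median was 0.071 with 1 subunit higher (against 1.47% of all genes) and 0 lower (against 2.16%), and in *Dek* cKO alone it was 0.041 with 5 higher (6.02%, against 3.09%) and 0 lower (against 3.93%). No gene passed with adjustment in either (0% of all genes each). Without the 2 libraries of conflicting sex, the median over both genotypes was 0.086, with 33 subunits higher (39.8%, against 4.45% of all genes), 0 lower (against 8.44%) and 0 past the adjusted threshold (against 0.0934%). Single libraries moved these counts. Over both genotypes, the number of subunits at an unadjusted p under 0.05 in either direction was 21 without male cKO replicate 1, 5 without male cKO replicate 2 or male WT replicate 2, 6 without female WT replicate 2, female WT replicate 3, male WT replicate 1 or male cKO replicate 3, and 7 without female cKO replicate 1. In *Dek* cKO alone it was 19 without male cKO replicate 1. Leaving out male cKO replicate 3 instead gave 1, with a median of -0.0009. Subunits measured in the same library share its composition and depth, so these counts are a description and the subunits are not independent.

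*Ndufc1*, a small complex I subunit, had the smallest p for this difference. It stood at 62.6, 57.9 and 58.8 TPM in female WT, 63.5, 68.7 and 60.8 TPM in male WT, 52.3, 52.4 and 53.8 TPM in the libraries labelled female cKO and 58.1, 67.0 and 66.9 TPM in those labelled male cKO. The WT groups overlapped. In the cKO groups, 53.8 and 58.1 TPM belonged to the 2 libraries of conflicting sex, and with their sexes exchanged the cKO groups overlapped as well. The log2 difference of male minus female, as labelled, was 0.19 ± 0.05 (limma adjusted p = 0.816). *Ndufa1*, an X-linked complex I subunit, differed by 0.14 ± 0.05, *Uqcr10* of complex III by 0.11 ± 0.04, *Ndufa13* of complex I by 0.11 ± 0.04 and *Cox6c* of complex IV by 0.14 ± 0.05, with limma adjusted p = 0.816 for each. With the 2 libraries of conflicting sex left out, the difference was 0.23 ± 0.04 for *Ndufc1*, 0.17 ± 0.05 for *Ndufa1*, 0.15 ± 0.03 for *Uqcr10*, 0.14 ± 0.04 for *Ndufa13* and 0.13 ± 0.04 for *Cox6c*, with limma adjusted p-values from 0.137 to 0.227. Over both genotypes, all 5 complexes had a positive median, with 0.063, 0.046, 0.046, 0.051 and 0.059 for complexes I to V over all subunits tested. In *Dek* cKO alone, as labelled, the medians were 0.047, 0.013, -0.002, 0.037 and 0.052. Without the 2 libraries of conflicting sex, the cKO medians ran from 0.078 in complex II to 0.121 in complex IV.

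The subunits are short, and other short transcripts differed in the same direction. The median longest coding transcript was 861 bases for the subunits and 2799 bases for all listed protein-coding genes. Among other protein-coding genes of at least 20 TPM, the 365 with no coding transcript over 1000 bases had a median male minus female difference of 0.042, with 30 higher (8.22%) and 7 lower (1.92%) at an unadjusted p under 0.05. The 5899 longer ones had a median of -0.013, with 172 higher (2.92%) and 276 lower (4.68%). The 75 cytosolic ribosomal protein genes, which are short and abundant, had a median of 0.088. At an unadjusted p under 0.05, 17 were higher (22.7%, against 2.49% of all genes) and 0 lower (against 3.38%). These lists are not separate, since ribosomal protein genes with no coding transcript over 1000 bases also count among the 365. No value was computed for the short genes without them. Without the 2 libraries of conflicting sex, the medians of the short, longer and ribosomal protein genes were 0.079, -0.024 and 0.145. At an unadjusted p under 0.05, 27.4%, 6.05% and 70.7% were then higher (against 4.45% of all genes). Lower were 1.92%, 14.3% and 0% (against 8.44%). Marker lists, compared only with all 12 libraries as labelled, differed between the sexes as well. Blood markers had a median of -0.39, with 4 of 5 lower in males at an unadjusted p under 0.05, and thalamus and habenula markers -0.31, with 3 of 6 lower (against 3.38% of all genes). Choroid plexus markers had a median of 0.91 with 9 of 9 above 0, dentate gyrus markers 0.31 with 4 of 4 above 0, meningeal markers 0.16 with 6 of 7 above 0 and oligodendrocyte markers -0.29 with 0 of 7 above 0, and in these 4 lists 0 genes reached an unadjusted p under 0.05. The highest choroid plexus level of the 12 libraries (2.20, median deviation on the log2 scale) was that of male cKO replicate 1, a library of conflicting sex. The part of transcript length or tissue composition in the difference of the subunits was not tested, and in WT the sex and the library name prefix cannot be told apart.

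**Figure D5:**
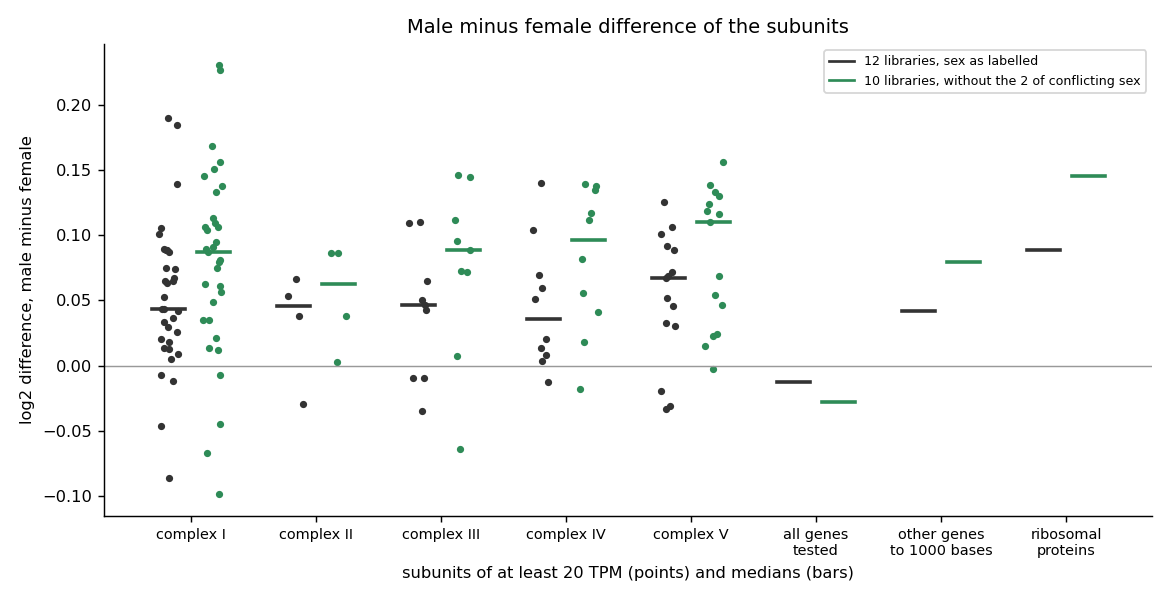
Log2 difference of male minus female for the subunits of at least 20 TPM (points, with the median of the plotted points as a bar) by complex, and medians for all genes tested, other genes with transcripts to 1000 bases and cytosolic ribosomal proteins, with all 12 libraries as labelled (dark) and without the 2 libraries of conflicting sex (green). All 5 complexes, the short genes and the ribosomal proteins have medians above 0, and the median over all genes is below 0. The short genes include ribosomal protein genes of that length.

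The other genes of the pathway were taken as 5 lists. In the comparison of both sexes, none of the 13 mitochondrially encoded subunits, 51 assembly factors, 17 enzymes of the tricarboxylic acid cycle, 12 regulators of mitochondrial biogenesis and 17 carriers and import proteins tested passed with adjustment in limma. The mitochondrially encoded subunits had a median log2 difference of -0.037, with 3 of 13 above 0, 0 at an unadjusted p under 0.05, and single genes from *mt-Atp8* (-0.18 ± 0.16) to *mt-Co1* (0.03 ± 0.08). Assembly factors, which build the complexes without being part of them, had a median of 0.018, with 1 higher (against 4.84% of all genes) and 1 lower (against 1.8%) at an unadjusted p under 0.05. *Ttc19*, of complex III assembly, differed by 0.11 ± 0.05 (limma adjusted p = 0.687) and *Tmem126a*, of complex I assembly, by -0.15 ± 0.04 (limma adjusted p = 0.298). Tricarboxylic acid cycle enzymes had a median of -0.018 with 0 at an unadjusted p under 0.05 in either direction, and carriers and import proteins a median of 0.008 with 0. Regulators of mitochondrial biogenesis had a median of 0.069, with 1 higher, the coactivator *Ppargc1b*. The 7 core subunits of complex I had a median of 0.043, with 0 at an unadjusted p under 0.05. The 7 tested isoforms of restricted tissue had a median of 0.035, with 2 higher (against 4.84% of all genes). These were *Cox4i2* and *Cox6b2*, already counted among the subunits above, and neither reached an unadjusted p under 0.05 without the 2 libraries of conflicting sex.

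Cell type markers were checked in the same fit. Neuronal markers summed to 5877 to 6452 TPM in WT and 5721 to 6470 TPM in *Dek* cKO libraries and 0 of the 11 reached an unadjusted p under 0.05. Meningeal markers had sums of 105 to 182 TPM in WT and 53.7 to 272 TPM in *Dek* cKO, a narrower span than that of the choroid plexus markers given above. None of the 13 marker lists held a gene that passed with adjustment, and genes at an unadjusted p under 0.05 included the astrocyte marker *Slc1a2*, which was lower, and the microglial marker *C1qa* and the pericyte marker *Abcc9*, which were higher.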

How the data were processed

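The authors deposited 1 table of TPM with a column per library, per the file headers. The methods of the study name STAR (GRCm38) and Salmon, the submitters' processing notes name kallisto and mm10, and no source used here says which made the table. TPM depends on assigning reads among similar transcripts and on the total of each library. Gene rows were matched by Ensembl identifier to GENCODE M21 (25245 of 26409). A pseudocount of 0.1 TPM was added before the log2 transform and genes averaging under 0.1 TPM were left out (18197 kept), so that fold changes understate those of low genes. Two-sided moderated tests came from limma (3.58.1, under R 4.3.3), whose prior variance followed the mean level, and p-values were adjusted over all genes (Benjamini-Hochberg). Genotype over both sexes was fitted on 2 groups of 6, and contrasts by sex on 4 groups of 3. Passing required both a fold change over 1.2 and an adjusted p under 0.05. The script was tested on simulated data. Near copies were found with BLAST (version 2.17.0+). Permutation tests of correlations drew 100000 permutations.

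Members, lists and tests were chosen with earlier results of these data known. Genes named are core subunits, isoforms of restricted tissue, the 10 smallest p-values over both sexes, the 5 smallest in each sex contrast, the highest and lowest of each complex, and list genes at an unadjusted p under 0.05. Others were chosen after their values were seen. Some genes that this rule names are not reported here. Alternatives were pseudocounts of 0.5 and 1 TPM, other filters and scalings, sex as a covariate, a constant prior variance, a replicate block, a fit on the sex alone, the libraries of 1 name prefix, and libraries left out.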

Additional observations from a re-analysis of the deposited data

Results flagged for a closer look

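Of the subunits named and the medians over subunits, each tested in 6 WT and 6 *Dek* cKO libraries, 4 had a single library far from the other 5, by the ratio of its gap to the nearest value over the whole range of the group (log2 scale). Such a rule marks about 5% of groups by chance, and 92 groups were tested. In male cKO replicate 3, *Sdhb* (188 TPM, ratio 0.653) and *Cox5a* (321 TPM, ratio 0.626) stood above the other *Dek* cKO libraries, and this library also had the highest median subunit level. *Cox6a2* in male WT replicate 1 (10.3 TPM) had a ratio of 0.637, and *Ndufa4* in male WT replicate 2, where it was listed at 0, a ratio of 0.744. The test of the difference in response between the sexes marked no subunit.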

How the results depend on the processing

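In every comparison, 0 subunits passed with adjustment under every alternative run. The number of all genes passing did move, and the cause was not tested. Over both sexes it was 27, and 17 with no filter, 12 without the 2 libraries of conflicting sex, 10 with the libraries of 1 name prefix, and 13 (without female cKO replicate 2) to 27 with 1 library left out. In females it was 3, and 7 with a constant prior variance, 6 without the 2 libraries, 1 in a fit on females alone, 9 with the sexes of the 2 libraries exchanged, and 1 to 8 with 1 library left out. In males it was 3, and 6 with no filter, with a constant prior variance, without the 2 libraries and in a fit on males alone, 5 with the sexes exchanged, and 2 to 7 with 1 library left out. For the difference in response between the sexes it was 0, and 2 with no filter or a constant prior variance. It was 3 without the 2 libraries or with the sexes exchanged, and 0 to 1 with 1 library left out. For male minus female it was 0, and 17 without the 2 libraries, 15 with the sexes exchanged, and 0 to 2 with 1 library left out. At an unadjusted p under 0.05, 1 to 5 subunits were counted over both sexes, 1 to 10 in females and 0 to 8 in males. For the difference in response between the sexes, 0 to 6 were counted. The comparison of male with female and the exchange of sexes were chosen after seeing the data.

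The median over the subunits in females (0.046) was 0.0048 without the 2 libraries, 0.0075 with the sexes exchanged and 0.0048 to 0.0616 with 1 library left out. For the difference in response between the sexes (-0.031) it was 0.0360 without the 2 libraries and 0.0423 with the sexes exchanged. With 1 library left out it was -0.0687 to 0.0189. For male minus female it stayed above 0 throughout (0.0352 to 0.0865), and in *Dek* cKO alone it was 0.1103 without the 2 libraries. Over both sexes it ran from -0.0135 to 0.0349 and in males from -0.0217 to 0.0392. Of 37 single-gene differences, 0 passed under any alternative and 5 changed sign. *Atp5a1* was 0.0032 with quantile normalization, 0.0043 without the 2 libraries and -0.0212 to 0.0173 with 1 library left out. *Atp5b* was -0.0028 without the 2 libraries, *Sdha* -0.0135 and *Cox4i1* -0.0067 with the libraries of 1 name prefix, and *Cyc1* ran from -0.0229 to 0.0128 with 1 library left out.

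With a replicate block, the number of all genes passing was 3 over both sexes, 1 in females and 1 in males. Libraries with the same number share only that number: their deviations correlated at -0.039, 0.006 and 0.001 in females and 0.039, 0.045 and 0.016 in males. With the block, 1 subunit was at an unadjusted p under 0.05 over both sexes, against 4 without it. The table holds no read counts, so what depth limits was not computed.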
